A study of Caenorhabditis elegans with 2 samples.

Results

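Described here are the peaks near 5 genes of the CDC-48 segregase in Caenorhabditis elegans: cdc-48.1, cdc-48.2, ufd-1, npl-4.1 and npl-4.2, all of them among the 19973 annotated protein-coding genes. The genes were chosen by name with the peak values of these data already known, so their ranks and signals are given as a description and carry no test. Chromatin was immunoprecipitated and sequenced from whole first-stage (L1) larvae, of mixed sex per the labels, for a fusion of C16A3.4 with enhanced green fluorescent protein (eGFP). The animals were of strain OP345, of genotype unc-119(ed3) III; wgIs345, in which the insertion wgIs345 supplies the tagged gene and unc-119 carries the ed3 allele. Both samples belong to this 1 group and are labelled biological replicates 1 and 2. The labels name no treatment, no second condition and no cell type within the larva. The tagged protein comes from an insertion in a strain of its own, and no peaks of an untagged animal were analysed here.

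CDC-48, called p97 or VCP in mammals, is a ring-shaped ATPase of the AAA family that pulls ubiquitinated proteins out of membranes, chromatin and complexes and unfolds them for the proteasome. The paired cofactors UFD-1 and NPL-4 bind the ubiquitin chain and hand the substrate to the ring. In worms this machine is known for the degradation of misfolded proteins of the endoplasmic reticulum (ER) and for its part in DNA replication in the embryo. C16A3.4, the tagged protein, is a zinc finger protein whose yeast relatives help to complete the large ribosomal subunit.

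Of the 5 genes, cdc-48.1 alone had a strong peak. Its summit, the point of highest signal that the authors give for a peak, was the second strongest of all 3220 peaks in the authors' thresholded list. The near-copy cdc-48.2 and the cofactor gene ufd-1 had only weaker peaks outside that list. The strongest pooled peak of cdc-48.2 lay just under the weakest peak of that list. The cofactor genes npl-4.1 and npl-4.2 had no summit near their starts in any list, and their starts lie in sequence present more than once in the genome.

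The sequences these results turn on are shown here, each read 5′ to 3′ along the gene's own strand from the reference assembly WBcel235, which is ce11. The cdc-48.1 line is the whole peak at chrII:10563448-10563716 on the minus strand, from −309 to −41 bp of the gene's 5′ end. The cdc-48.2 lines are the 50 bp to each side of its summits, at chrII:8137579-8137679 and chrII:8138144-8138244 on the plus strand. The last line is the 100 bp before the 5′ end of npl-4.1, at chrII:5631251-5631350 on the plus strand. The same letters precede npl-4.2 at chrII:5622789-5622888. Capitals mark matches to a short list of 6-base words described further on.
cdc-48.1 peak: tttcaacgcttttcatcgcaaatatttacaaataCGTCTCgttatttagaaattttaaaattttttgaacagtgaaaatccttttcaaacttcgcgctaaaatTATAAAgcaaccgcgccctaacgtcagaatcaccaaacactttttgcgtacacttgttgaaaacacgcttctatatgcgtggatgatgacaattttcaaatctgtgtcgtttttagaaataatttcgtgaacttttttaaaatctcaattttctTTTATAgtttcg
cdc-48.2 upstream summit: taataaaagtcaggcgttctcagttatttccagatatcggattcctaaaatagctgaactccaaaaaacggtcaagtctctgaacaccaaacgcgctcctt
cdc-48.2 downstream summit: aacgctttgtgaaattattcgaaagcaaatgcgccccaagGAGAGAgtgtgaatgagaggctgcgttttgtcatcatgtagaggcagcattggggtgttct
npl-4.1 and npl-4.2: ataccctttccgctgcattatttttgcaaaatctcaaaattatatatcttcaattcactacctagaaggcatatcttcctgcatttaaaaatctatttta

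A summit was assigned to a gene when it fell in the 1000 bp before the gene's annotated 5′ end or in the 200 bp after it, called the promoter window here. In the thresholded list 1 of the 5 genes had such a summit (20%), where 13.7% of all protein-coding genes had one. The pooled list holds the 21096 peaks called on both replicates together, and its label says that it holds background as well as peaks. There 3 of the 5 genes had a summit (60%) beside 36.5% of all protein-coding genes. The replicate lists hold 30000 peaks each and reach into background too. In each of them the same 3 genes, cdc-48.1, cdc-48.2 and ufd-1, had a summit, beside 43.3% of protein-coding genes in replicate 1 and 42.9% in replicate 2. When each replicate list was limited to its 3220 strongest peaks, 2 of the 5 genes had a summit in replicate 1 (background 13.3%) and 1 in replicate 2 (background 13.1%). The members were chosen on these same lists, so nothing is read from these shares.

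**Figure D1:**
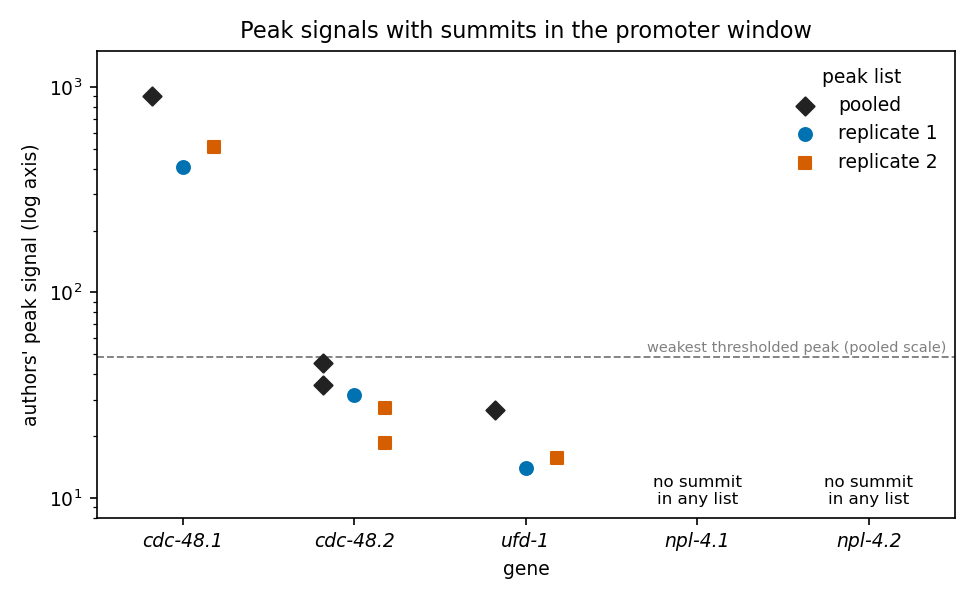
Authors' peak signal (log axis) of every summit in the promoter windows of the 5 genes, by gene, in the pooled, replicate 1 and replicate 2 lists, with a dashed line at the weakest thresholded peak on the pooled scale. The pooled cdc-48.1 peak stands at 902, and those of cdc-48.2 and ufd-1 lie below the line at 48.4.

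The gene cdc-48.1 (WBGene00007352; chromosome II, 10560036 to 10563407, minus strand) encodes 1 of the 2 versions of the segregase ring protein. Its peak had a signal of 902 in the thresholded and pooled lists, 407 in replicate 1 and 508 in replicate 2. The signal is the authors' own value per peak, its scale is not stated, and the depth of sequencing behind it is unknown because the lists carry no counts of reads. By rank the peak was number 2 in the thresholded and pooled lists, number 1 in replicate 1 and number 2 in replicate 2. Both replicates thus placed it at the very top of their own list. The thresholded signal was 10.6 times the median of that list. In replicate 1 the next peak followed closely at 400, and the one after that fell to 316. In replicate 2 it lay between a stronger peak of 534 and a weaker one of 500.1.

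The cdc-48.1 summit lay at −176 bp in the pooled list and in replicate 1, and at −157 bp in replicate 2. The peak was 269 bp wide in the pooled list, 251 bp in replicate 1 and 247 bp in replicate 2. The median width of all peaks was 344 bp in the thresholded and pooled lists, 350 bp in replicate 1 and 324 bp in replicate 2. No annotated gene holds the summit, and no other protein-coding gene's promoter window reaches it. The next protein-coding gene upstream, C06A1.6, lies on the same strand with 704 bp between the genes. A small nucleolar RNA gene, C06A1.9, had the summit in its own window as well, at −519 bp from its 5′ end. Small nucleolar RNAs guide the chemical modification of other RNAs, and the signal cannot be divided between the neighbours.

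**Figure D2:**
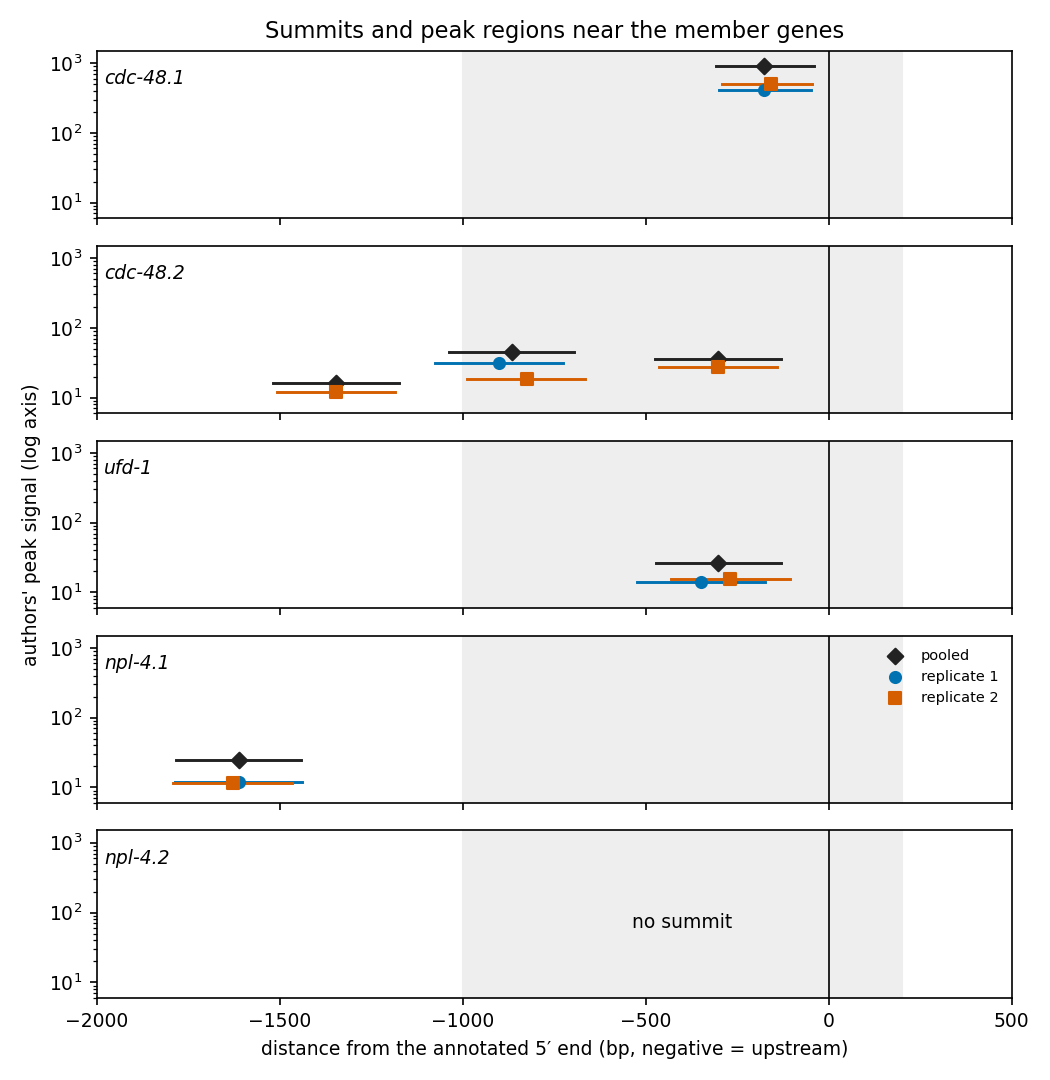
Summits (markers) and peak regions (horizontal bars) from 2000 bp upstream to 500 bp downstream of each gene's annotated 5′ end (vertical line), with the promoter window shaded and the authors' signal on a log axis, for the pooled, replicate 1 and replicate 2 lists. The cdc-48.1 peaks stack at −176 and −157 bp, the cdc-48.2 summits spread over several positions, and the shaded windows of npl-4.1 and npl-4.2 are empty.

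Within 10 kb of the cdc-48.1 5′ end the thresholded list held 4 further peaks, the strongest with a signal of 138 at rank 710. The 902 of cdc-48.1 therefore stood well above its surroundings as well as near the top of the whole list. At every 36-base word of the peak the sequence occurs once in the genome. The ce10 version of the lists comes from the same 2 samples. In each of them 1 peak on the same chromosome matched within 10 bp of width and 2% of signal, with no positions compared. It had a signal of 902 in the pooled list and held the same rank in all 4 lists. Because it was picked by its signal, this likeness follows from the choice.

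The peaks most like it in strength, by the distance between log2 signals over the pooled, replicate 1 and replicate 2 lists, were those of rpl-3 (distance 0.09), of rpl-15 and K11H12.8 (0.46) and of iff-2 and F54C9.14 (0.52). They were picked from 1887 other thresholded peaks that lay in a protein-coding promoter window and had a summit in both replicates within 100 bp. The genes rpl-3 and rpl-15 encode proteins of the large ribosomal subunit, and iff-2 encodes the translation factor eIF5A. The rpl-3 peak had a pooled signal of 931, with 400 in replicate 1 and 534 in replicate 2, so it and cdc-48.1 exchanged places between the replicates. The measure compares strength over 3 lists, of which the pooled list shares reads with each replicate list, and says nothing of the genes' roles.

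**Figure D3:**
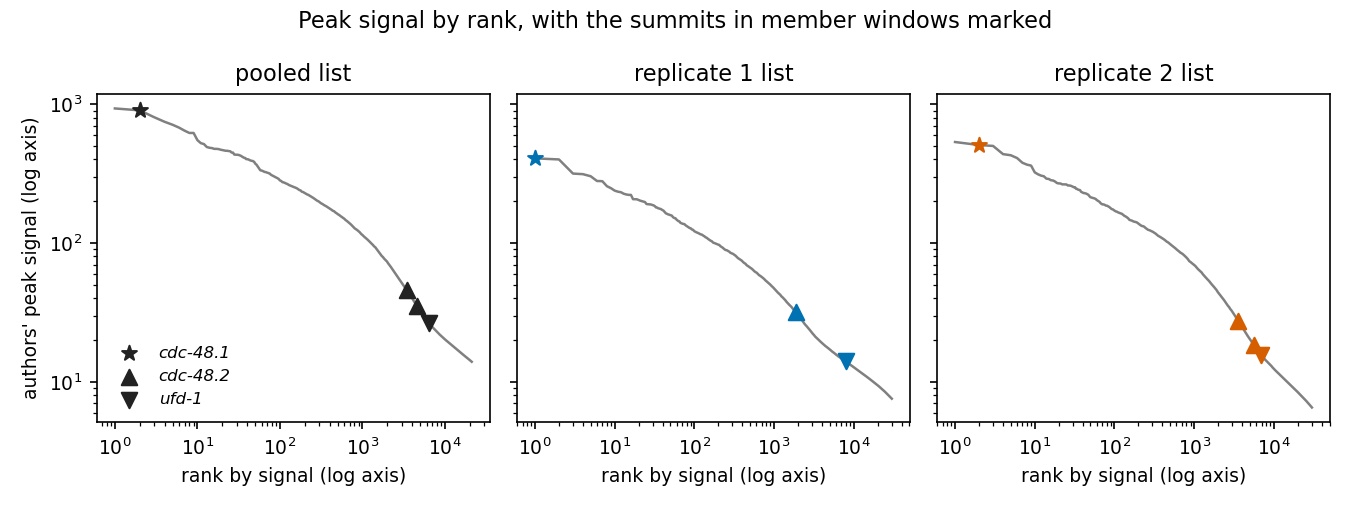
Authors' peak signal against rank (both log axes) in the pooled, replicate 1 and replicate 2 lists as grey curves, with every summit in the promoter windows of cdc-48.1, cdc-48.2 and ufd-1 marked. The cdc-48.1 marker sits at rank 1 or 2 in each list, and the markers of the other genes lie at rank 1884 or beyond.

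The gene cdc-48.2 (WBGene00008053; chromosome II, 8138496 to 8141230, plus strand) encodes the other version of the ring protein. The proteins, of 809 and 810 residues, matched at 88.1% of aligned positions, and the coding sequences at 75.6%. The 300 bp before the 5′ ends matched at 48.4%, near the 52.0% found between cdc-48.1 and the distant relative cdc-48.3, whose protein matched that of cdc-48.1 at only 26.3%. The coding parts are thus close copies, while the sequence upstream is not. Every 36-base word of the cdc-48.2 window and gene occurs once in the genome.

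The cdc-48.2 window held 2 pooled summits and none of the thresholded list. The stronger lay at −867 bp with a signal of 45.5 at rank 3475, just under the weakest thresholded peak, whose signal was 48.4. It had a signal of 31.6 in replicate 1 (rank 1884, at −901 bp) and of 18.5 in replicate 2 (rank 5579, at −826 bp). This summit also lies in the window of the divergent neighbour ctns-1, at −711 bp from that gene's 5′ end, and is nearer to ctns-1 than to cdc-48.2. The gene ctns-1 encodes a relative of human cystinosin, a lysosomal cystine transporter.

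The weaker pooled summit lay closer to the gene, at −302 bp, with a signal of 35.3 at rank 4564. Replicate 2 had a summit at −303 bp with a signal of 27.5 (rank 3577), which was its strongest in the window. Replicate 1 had none within 200 bp of this place. The replicates therefore disagreed on which of the cdc-48.2 summits was the stronger. Among the 3220 pooled peaks next below the thresholded list, 60.9% had a summit of both replicates within 100 bp and 25.9% of replicate 2 only, so a peak seen in 1 replicate is common at this strength. A fainter pooled summit lay outside the window at −1347 bp, with a signal of 16.3.

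Set against cdc-48.2's strongest summit, the cdc-48.1 signal was 19.8 times as high in the pooled list, 12.9 times in replicate 1 and 18.5 times in replicate 2. The gap was thus present in each replicate, on different cdc-48.2 summits. With 2 samples of 1 group no test of this difference over samples was made. The nearest thresholded summit to cdc-48.2 lay 4990 bp downstream of its 5′ end, in the windows of ints-11 and of rpl-10, which encodes a ribosomal protein, with a signal of 98.1.

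The gene ufd-1 (WBGene00006733; chromosome IV, 12329408 to 12330890, minus strand) encodes a cofactor of the ring that binds ubiquitin chains. Its only pooled summit lay at −302 bp with a signal of 26.7 at rank 6357. Replicate 1 had a signal of 14.0 there (rank 7891, at −350 bp) and replicate 2 of 15.6 (rank 6936, at −269 bp). Both replicates placed this peak deep in their lists, and the cdc-48.1 signal was 33.7 times as high in the pooled list, 29.0 times in replicate 1 and 32.4 times in replicate 2. The −log10 q that the authors deposited for it was 1.02 in the pooled list, 0.59 in replicate 1 and 1.46 in replicate 2. The thresholded peaks all had 3.84, the highest value in the pooled list, which 3424 pooled peaks reached. At cdc-48.2 the stronger pooled summit had 3.36 and the weaker 2.12. In replicate 1 its summit at −901 bp had 3.71, and in replicate 2 that at −303 bp had 3.87, each the list's highest value. The replicate 2 summit at −826 bp had 2.18.

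The ufd-1 summit lay inside another gene. F19B6.1 ends 85 bp before ufd-1 begins, on the same strand, and the summit fell 216 bp inside it, in the annotated 3′ untranslated region of 3 of its transcripts. Genes this close on 1 strand can share a promoter in worms, and then the annotated 5′ end of the second gene is not where transcription starts. Whether that holds for ufd-1 was not tested. No thresholded summit lay within 10 kb of ufd-1, and the nearest was 41198 bp away, in the window of wdr-46.

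The genes npl-4.1 (WBGene00019120; chromosome II, 5631351 to 5633284) and npl-4.2 (WBGene00019121; chromosome II, 5622889 to 5624959), both on the plus strand, encode the partner of UFD-1. Their windows held no summit in the thresholded, pooled, replicate 1 or replicate 2 list. Their 5′ ends lie 8462 bp apart, and the sequences before them are copies. The stretch from 1325 bp upstream to the first 14 bp of the genes was identical base for base, and within the window of 1201 bp the genes differed at 1 position. Their proteins, of 529 residues each, matched at 99.1% of positions.

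Only 3.09% of the 36-base words in each npl-4 window occur once in the genome (36 of 1166). In the windows of cdc-48.2 and ufd-1 every such word occurs once, and in that of cdc-48.1 90.7% do. A read of 36 bases from either npl-4 promoter could therefore rarely be placed at 1 gene. Whether the authors kept reads with several equal matches is not given in the sources used here, and the length of the reads is not either. With words of 50 bases the share found once was 4.34%.

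The empty windows of npl-4.1 and npl-4.2 were shared by every other gene with so little sequence of its own. Of the 19972 protein-coding windows that lie inside their chromosomes, 252 had under 10% of their 36-base words found once. None of these 252 had a summit in the thresholded, pooled, replicate 1 or replicate 2 list. By counting error alone this allows a share of up to 1.19% if the windows are independent. Windows that are copies, such as those of npl-4.1 and npl-4.2, are not independent, so this limit may be too low. Where 90% or more of the words occur once, 14.8% of 17388 windows had a thresholded summit and 39.4% a pooled one. In between, at 10 to under 50%, the thresholded share was 2.49% of 361 windows, and at 50 to under 90% it was 7.76% of 1971. Genes of repeated families also differ from other genes in kind, and the part of sequence copies in these shares was not tested. At npl-4.1 and npl-4.2 an absence of binding cannot be told apart from reads that were not placed.

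**Figure D4:**
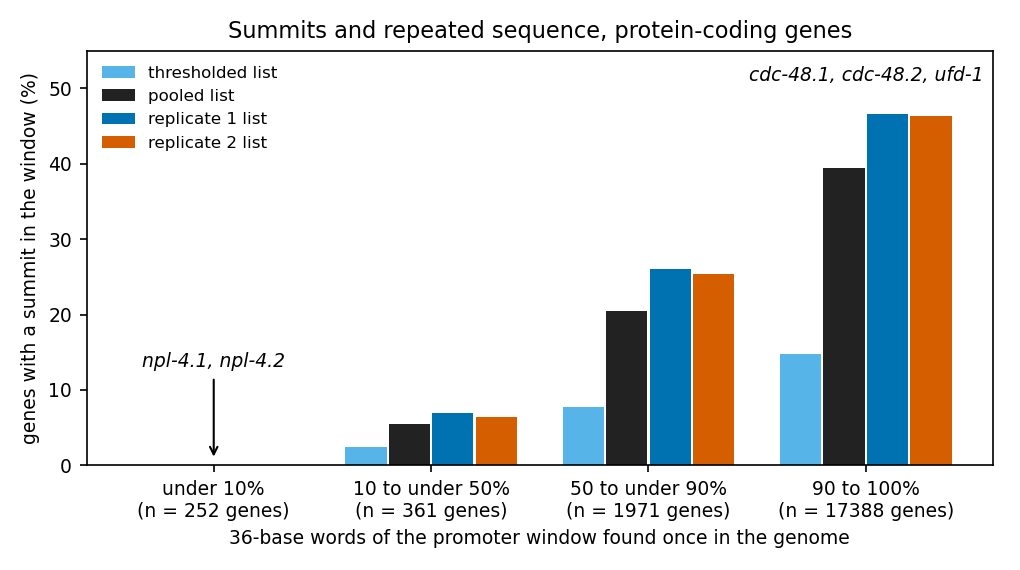
Share of protein-coding genes (%) with a summit in the promoter window, by the share of the window's 36-base words found once in the genome, with bars for the thresholded, pooled, replicate 1 and replicate 2 lists and the number of genes under each class. The class under 10%, which holds npl-4.1 and npl-4.2, is at 0 in all 4 lists, and cdc-48.1, cdc-48.2 and ufd-1 fall in the class of 90 to 100%.

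The nearest summit to npl-4.1 lay at −1613 bp, beyond the identical stretch, in an exon of the divergent neighbour F59E12.6. Its signal was 24.4 in the pooled list (rank 7248), 12.0 in replicate 1 and 11.4 in replicate 2. The nearest to npl-4.2 lay at −3327 bp, in the window of dhs-6, with a pooled signal of 55.5 at rank 2743. The neighbour that starts 406 bp from npl-4.2 on the opposite strand is eif-3.L, which encodes a subunit of a translation initiation factor.

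At the signals of the replicates, cdc-48.1 lay near the rest of the list. The log2 of replicate 1 over replicate 2 was −0.32 at its peak, and 65.1% of the 2996 thresholded peaks matched in both replicates were at or below this. The median of those peaks was −0.54, with quartiles at −0.97 and −0.13. The ufd-1 peak had −0.16. The upstream cdc-48.2 summit had 0.77, higher in replicate 1, and 97.5% of the thresholded peaks were at or below it. Weaker peaks scatter more. Of the 1961 matched pooled peaks at ranks 3221 to 6440, where this summit belongs, 88.3% were at or below it, and their quartiles were −0.81 and 0.36.

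**Figure D5:**
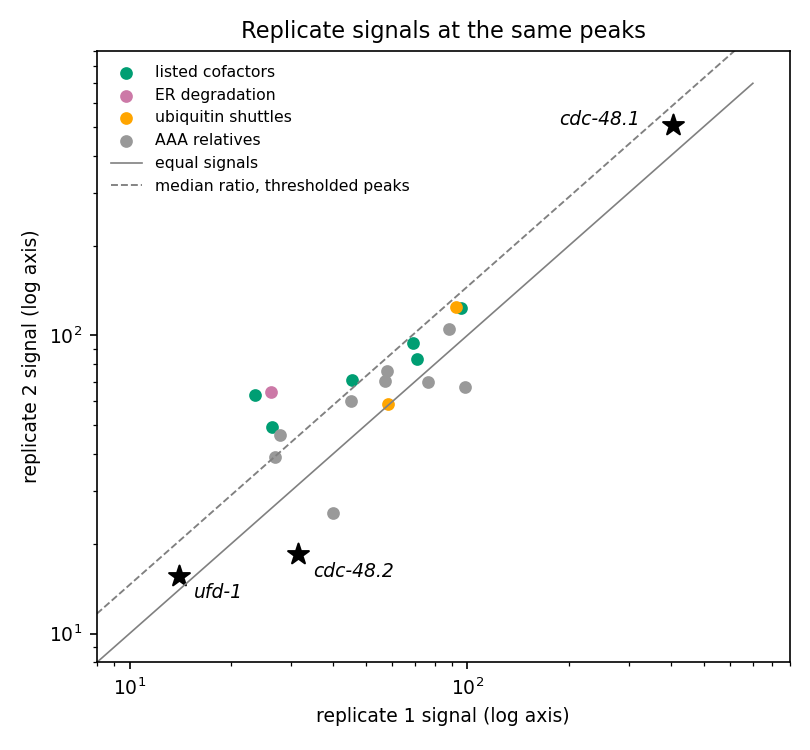
Replicate 2 signal against replicate 1 signal (both log axes) at peaks matched within 100 bp, for cdc-48.1, the upstream cdc-48.2 summit and ufd-1 (stars) and the 18 thresholded peaks of other listed genes (dots, by group), with lines for equal signals and for the median ratio of the thresholded peaks. The cdc-48.1 star lies far above the other listed genes on both axes, and the cdc-48.2 star lies on the replicate 1 side of the line of equal signals.

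The sequence at the summits was searched for 6 words on both strands, within 100 bp of each summit. They were TATAAA (the TATA box), CGTCTC (a word frequent at these peaks), GAGAGA (a repeat of G and A), GATAAG (the site of GATA factors), GGGCGG (the GC box) and CACGTG (the E-box). CGTCTC was listed with its frequency at these peaks known, so its share there is only a description. Matches may overlap in general, but none did in the lines printed above. At cdc-48.1 the search found TATAAA, starting at −206 bp from the 5′ end, and CGTCTC, starting at −275 bp. A further TATAAA on the other strand lies in the printed peak, more than 100 bp from the summit. TATAAA was present at 14.2% of all thresholded summits and in 30.5% of all protein-coding promoters of the same length of 201 bp, and CGTCTC at 24.2% and in 7.56%. Promoters here are the 201 bp that end at each annotated 5′ end, not the promoter windows used above. Summits can lie anywhere in the genome, so these shares compare unlike places. The weaker cdc-48.2 summit held GAGAGA, starting at −312 bp, a word present at 38.9% of thresholded summits and in 16.3% of promoters. The stronger cdc-48.2 summit held none of the 6 words, and ufd-1 held TATAAA alone. The shares for GATAAG (7.76% and 12.6%), GGGCGG (9.29% and 5.97%) and CACGTG (8.35% and 4.23%) are given as background, since no summit of these genes held them.

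Bases G and C made up 33.8% of the 201 bp around the cdc-48.1 summit, below the median of 41.8% at thresholded summits and close to the 32.8% of protein-coding promoters. The promoters are again the 201 bp that end at each annotated 5′ end. The cdc-48.2 summits had 38.3% and 37.3%, and that of ufd-1 39.3%. All 4 summit windows were thus poorer in G and C than the middle thresholded summit.

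Beyond the core machine, a list of 37 genes of cofactors, ER degradation, ubiquitin shuttles and AAA relatives was examined. Of them 18 (48.6%) had a thresholded summit in the window and 19 had none, beside the same background of 13.7%. The list was put together with results of these data known, so the share is a description and was not tested. The 18 lay on separate peaks, with signals from 65.8 to 217 and a median of 120, where the 2728 protein-coding genes with a thresholded summit had a median of 98.0. None came near the 902 of cdc-48.1. Their summits lay between −817 and −41 bp, with a median of −284.5 bp. For 9 of the 18 genes the summit also lay in the window of another protein-coding gene. All 18 had a summit of both replicates within 100 bp, as did 93% of all thresholded peaks.

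Of 12 further cofactors, 6 had a thresholded summit (50%), beside 13.7% of all protein-coding genes. The strongest was at ufd-3, the relative of yeast Doa1 and human PLAA, which bind both ubiquitin and the ring, with a signal of 217 at −113 bp, 95.9 in replicate 1 and 123 in replicate 2. At ufd-2, which encodes a ligase that lengthens ubiquitin chains, the signal was 162 at −306 bp, with 69.0 in replicate 1 and 94.5 in replicate 2. The peak of dvc-1, the worm relative of the human protease SPRTN that clears proteins bound to DNA, had a signal of 154 and lay in the window of ima-1 as well. Among genes with the UBX domain, which docks on the ring, ubxn-2 had 115, ubxn-3 92.1 and ubxn-1 80.5. The ubxn-1 summit was nearer to tipn-1. UBXN-3 works with CDC-48 when the replicative helicase is taken off DNA. Of the others, ubxn-4 had a pooled summit with a signal of 40.4, below the thresholded list. The pooled list held no summit for ubxn-5, ubxn-6, atx-3 (ataxin-3, which removes ubiquitin), png-1 (which removes sugar chains) or chn-1 (a ligase that partners UFD-2).

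Of 7 genes of ER degradation, 1 had a thresholded summit (14.3%), a share near the background of 13.7%. It was cup-2, which encodes a derlin of the ER membrane, with a signal of 89.8. That summit lay in an exon of the non-coding gene F25D7.11 and nearer to tag-353. The gene sel-1, a part of the ER ligase complex, had a pooled signal of 40.7 below the thresholded list. The ligase genes sel-11, hrdl-1, rnf-5 and marc-6 and the second derlin gene der-2 had no pooled summit.

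Of 3 genes whose products carry or receive ubiquitinated proteins at the proteasome, rad-23 had a thresholded signal of 116 and ubql-1 one of 215. These are 66.7% of the 3 genes, beside 13.7% of all protein-coding genes. The rad-23 summit was nearer to rpn-12, a proteasome subunit gene, at −132 bp from its 5′ end. That of ubql-1 lay in exons of the non-coding genes VF15C11L.1 and VF15C11L.2, and also in the window of pdi-3, at −699 bp from that gene's 5′ end. The proteasome receptor gene rpn-10 had only a weak pooled summit of signal 17.5.

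Of 15 AAA relatives, 9 had a thresholded summit (60%), beside 13.7% of all protein-coding genes. They were spas-1, the relative of spastin that severs microtubules (199), nsf-1, which drives membrane fusion (166), vps-4, which takes apart membrane scission filaments (146), and the mitochondrial protein gene atad-3 (131). The others were pch-2, the relative of TRIP13 (125), the mitochondrial protease genes spg-7 (105) and ymel-1 (65.8), the katanin gene mei-1 (75.9) and lex-1 (72.1). The summits of nsf-1, mei-1, lex-1 and atad-3 also lay in windows of adr-1, npp-2, tmed-1 and nrde-2. That of mei-1, at −817 bp, was nearer to npp-2, at −417 bp from its 5′ end. The spg-7 summit lay in an intron of Y47G6A.14. Neither cdc-48.3 nor mac-1 had a pooled summit. Human and yeast relatives of mac-1 act in ribosome assembly. Of the rest, prx-6 had a pooled signal of 24.1 and figl-1 one of 19.6, and prx-1 and bcs-1 had none.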

How the data were processed

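Chromatin immunoprecipitation peaks of eGFP-tagged C16A3.4 were taken from 4 lists on each of 2 builds, ce10 and ce11. Per the notes deposited beside the lists, peaks were called on each replicate with a control and on both replicates together, and a thresholded list was derived from these by the irreproducible discovery rate. Which caller and aligner were run is not given in the sources used here, nor is the read length. The authors' signal per peak has no stated scale, and peaks were ranked by it within each list. The q column holds the −log10 q that the authors deposited. The summit is the deposited offset added to the peak's start. Depth is unknown.

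Summits on ce11 were placed on WBcel235, the same assembly (0 peaks beyond a chromosome's end), with the Ensembl release 115 annotation. Replicate summits were matched within 100 bp. Words of 36 bases were counted on both strands of the 6 nuclear chromosomes. Sequences were aligned end to end with Biopython 1.88. The window search was tested on planted summits. The genes and lists were chosen with earlier results of these data known. Named were the 5 genes, genes sharing their summits, listed genes with a thresholded summit, and the 3 peaks most like that of cdc-48.1. Other genes named beside them were chosen after their values were seen. Alternatives were other windows, transcript ends, list lengths, peak regions, matching distances, the ce10 lists and each replicate alone. No test was made.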

Additional observations from a re-analysis of the deposited data

How the results depend on the processing

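Among the 5 genes, cdc-48.1 alone had a thresholded summit in windows of 500 bp around the 5′ end on either side, with 2000 bp upstream, with peak regions in place of summits, with the 5′ end of any transcript and in the strongest 1610 peaks. With the 6440 strongest pooled peaks, and with all pooled peaks, the count was 3, by adding cdc-48.2 and ufd-1. With 1 replicate left out and the other's 3220 strongest peaks in place of the list, the count ran from 1 to 2, and cdc-48.2 was added without replicate 2. The rank of the strongest summit then ran from 1 to 2 for cdc-48.1, from 1884 to 3577 for cdc-48.2 and from 6936 to 7891 for ufd-1. These ranks and words of 50 bases were added after seeing the data. Within 500 bp of the 5′ end the strongest cdc-48.2 signal was 35.3. The count of other listed genes ran from 14 to 24 around 18. Of all protein-coding genes, 36.5% had a summit among all pooled peaks. No such share was counted for the other windows, the transcript ends, the peak regions, the strongest 1610 peaks or the 6440 strongest pooled peaks. Counts under those settings are therefore not set against a background. The ce10 lists could not be used for cdc-48.2 and ufd-1, where several peaks were alike in width and signal. Matching replicates within 50 or 200 bp changed no ratio at the strongest summit of each gene. The cause of the shifts was not tested. Depth is unknown, so the weak summits of cdc-48.2 and ufd-1 have no counting error.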
